A study of Mus musculus with 24 samples.

Results

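A set of 8 genes of the route from prohormone to stored hormone, namely Pcsk1, Pcsk2, Furin, Pcsk1n, Scg5, Cpe, Pam and Slc30a8, was examined in mouse pancreatic islet cells. The genes were taken by gene symbol from the deposited expression table, and all 8 were found among its 41549 genes. All 8 also passed the filter on low counts, which left 15916 genes for testing.

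Islet hormones are made as long precursors. In the secretory granule, the prohormone convertases PC1/3 and PC2 cut the precursor after pairs of basic residues, carboxypeptidase E trims the basic residues left behind, and amidating enzymes finish the ends of some peptides. In β-cells the zinc transporter ZnT8 loads the granule with zinc, with which insulin packs into crystals, and its gene is known for variants tied to the risk of type 2 diabetes.

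The libraries came from islets of Wild type mice that were dispersed into single cells, transfected with an antisense oligonucleotide (ASO) and then kept with palmitate (PA) or with its carrier, bovine serum albumin (BSA). Per the methods of the study, 50 pmol of ASO was used, PA was given at 0.5 mM for 48 h, the control medium held 0.75% BSA, and the mice were C57BL/6NRj of both sexes, from 12 to 14 weeks old. The control ASO (Ctr) and the ASO against the 5′ fragment of tRNA-Glu(CTC), named αGlu, were each combined with BSA and with PA, and a group is named by its ASO followed by its treatment (Ctr BSA, for example). Each group had 6 libraries, 3 in each of 2 batches named in the labels. The fragment itself was not analysed here, since the libraries hold mRNA.

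The ASO and its target are shown because they define the αGlu groups. Both are written 5′ to 3′, and capitals mark the 20 bases that pair between them.
αGlu ASO: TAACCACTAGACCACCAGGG
tRNA-Glu(CTC) fragment, target stretch: tCCCTGGTGGTCTAGTGGTTA
The longest unbroken run of bases that the ASO could pair with in the longest coding transcript was 9 bases for Furin and 6 or 7 bases for each of the other 7 genes. The median over 14337 tested coding genes was 7 bases, and 15.5% of them held a run of 9 bases or more.

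Promoters are shown for the 4 genes that passed the test with PA in at least one ASO, Pcsk1, Furin, Pcsk1n and Pam. The sequences come from RefSeq on GRCm38.p6, which listed promoters for 6 of the 8 genes, and each ends just before the gene's annotated start. The Pcsk1 stretch has 219 bases, since its RefSeq start lies inside the gene as annotated by GENCODE, and Pam and Furin are shown for the more upstream of their RefSeq starts. A set of 6 motifs was searched on both strands of the 250 bases before each start: CCAAT (the CCAAT box), TATAAA (the TATA box), GGGCGG (the GC box), TGACGTCA (the full cAMP response element), its core letters TGACGT, and lastly CACGTG (the E-box). Capitals mark matches to any of them, and TGACGTCA contains TGACGT on both strands.
Pcsk1 (chr13:75089607-75089825, + strand): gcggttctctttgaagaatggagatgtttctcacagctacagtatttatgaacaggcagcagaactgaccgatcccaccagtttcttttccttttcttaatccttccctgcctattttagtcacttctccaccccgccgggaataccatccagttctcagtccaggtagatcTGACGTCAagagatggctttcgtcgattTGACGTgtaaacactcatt
Furin (chr7:80405437-80405686, - strand): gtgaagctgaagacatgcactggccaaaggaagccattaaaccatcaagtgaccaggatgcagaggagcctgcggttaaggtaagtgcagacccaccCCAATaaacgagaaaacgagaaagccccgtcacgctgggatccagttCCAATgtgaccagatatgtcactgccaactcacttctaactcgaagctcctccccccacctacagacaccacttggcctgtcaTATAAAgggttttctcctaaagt
Pcsk1n (chrX:7919572-7919821, + strand): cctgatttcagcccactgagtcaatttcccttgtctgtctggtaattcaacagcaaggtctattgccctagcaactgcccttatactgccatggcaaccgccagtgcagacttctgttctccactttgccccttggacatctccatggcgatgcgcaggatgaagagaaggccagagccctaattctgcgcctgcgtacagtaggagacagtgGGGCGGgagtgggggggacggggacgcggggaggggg
Pam (chr1:98095647-98095896, - strand): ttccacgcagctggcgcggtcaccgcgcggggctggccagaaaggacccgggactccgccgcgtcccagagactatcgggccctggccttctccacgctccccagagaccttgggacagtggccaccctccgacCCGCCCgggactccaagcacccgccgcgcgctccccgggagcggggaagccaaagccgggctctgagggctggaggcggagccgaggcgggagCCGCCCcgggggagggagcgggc
The Pcsk1 promoter held 1 full cAMP response element, 78 bases before the RefSeq start, and a further TGACGT, 50 bases before it. A full element was present in 1.55% of all 32851 promoter windows and the core in 6.47%. The upstream Furin promoter held CCAAT at 2 places and TATAAA 23 bases before the start, against 33.8% and 12.4% of all windows with these motifs. Pam held GC boxes at 2 places and Pcsk1n at 1 place, a motif of 32.7% of all windows. None of the 4 windows held CACGTG, which was found in 6.02% of all windows. These matches describe letters in a window, and binding of a factor was not measured.

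The 8 genes are spread over 7 chromosomes of GRCm38. Pcsk1 (ENSMUSG00000021587) lies on the + strand of chr13:75089826-75134861 with up to 14 exons. Pcsk2 (ENSMUSG00000027419, chr2:143546156-143816285, + strand, up to 12 exons) is overlapped on the other strand by the antisense genes Pcsk2os1 and Pcsk2os2. Furin (ENSMUSG00000030530, chr7:80388585-80405436, - strand, up to 16 exons) has the antisense gene Gm44851 across its start, and Pcsk1n (ENSMUSG00000039278, chrX:7919822-7924410, + strand, 3 exons) is overlapped by Eras on the other strand, and these partners held at most 12 and 6 counts a library. Scg5 (ENSMUSG00000023236, chr2:113776362-113829121, - strand) and Cpe (ENSMUSG00000037852, chr8:64592542-64693054, - strand) are overlapped by no other gene, and neither is Slc30a8 (ENSMUSG00000022315, chr15:52295553-52335798, + strand). Pam (ENSMUSG00000026335, chr1:97795114-98095646, - strand) has up to 26 exons, the most of the 8. It shares its strand with B230216N24Rik, Gm3531 and Gm37140, whose reads could be split with it. On the other strand it is overlapped by Gm24465 and Gm25413. The kit keeps strand, but no source used here says whether the counting did.

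The libraries held 18214719 to 35001979 counts, and the 8 genes together took 1.17% to 1.81% of them. Ctr BSA library S1 stood apart: it had the lowest total, 15.9% of its counts were in a single ribosomal RNA row against 0.549% to 3.47% elsewhere, and its summed β-cell markers (133616 CPM, counts scaled by library total and TMM factor) were above those of the other batch 1 libraries (83668 to 98646 CPM). Its PP-cell sum (1936 CPM) and δ-cell sum (655 CPM) were the highest of all libraries, while its α-cell sum was not. The defining markers of islet cells were present throughout, and no marker gene of any list was at 0 in all 24 libraries. Alongside the markers of β-, α-, δ- and PP-cells, those of acinar, ductal and stromal cells were detected. In such mixed samples, fewer cells of a type and less RNA per cell cannot be told apart.

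Between genes, levels were compared per length with the deposited TPM values, which scale transcripts to gene length and library total. Cpe stood highest, with a lowest TPM of 3607, a median of 4740 and a highest of 5372 over 24 libraries. It was followed by Pcsk2 (median 2597), Scg5 (1424), Pcsk1 (659), Pcsk1n (610), Slc30a8 (499), Pam (226) and Furin (23.7). The enzyme that trims basic residues and the convertase PC2 thus had the most transcript, and the convertase of the general secretory route the least.

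The order was the same in every library for most neighbours. Pcsk1 was above Pcsk1n in 16 of 24 libraries and Pcsk1n above Slc30a8 in 18 of 24, and the TPM ranges of these pairs overlapped. All other neighbours in the order had ranges that did not overlap. Among the genes tested, Cpe, Pcsk2, Scg5, Pcsk1, Pcsk1n and Slc30a8 stood above 99.3% to 99.9% of genes by median TPM and Pam above 98.1%, while Furin stood above 69.5%. Each level rested on many counts, from 1448 for Furin in its lowest library to 262338 for Pcsk2 in its highest.

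**Figure D1:**
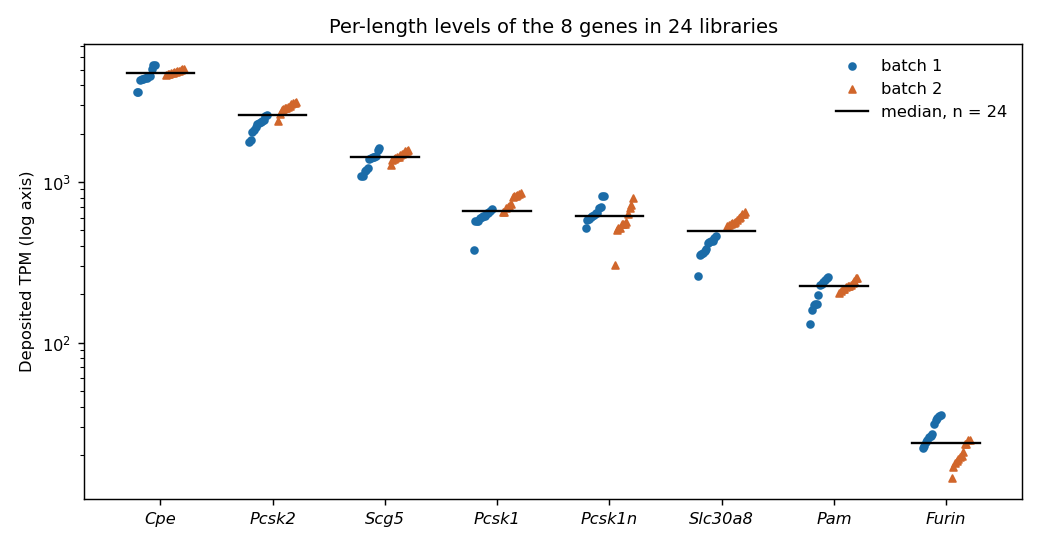
Deposited TPM of each gene (log axis) in 24 libraries, with circles for batch 1, triangles for batch 2 and a bar at the median of 24. Cpe (median 4740) and Furin (median 23.7) are at the ends of the order, and Pcsk1, Pcsk1n and Slc30a8 overlap.

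The response to PA was asked first within the control ASO. Of the 8 genes, 3 passed the test (edgeR quasi-likelihood F-test, Benjamini-Hochberg adjusted p below 0.05), where 30% of all 15916 genes did. Pam rose, in a comparison where 15.5% of genes rose, and Furin and Pcsk1n fell, where 14.5% fell. In αGlu cells 3 of 8 passed again, against 28.5% of genes: Pam rose, where 14.4% of genes did, and Furin and Pcsk1 fell, where 14.2% did. These shares are close to the background, so the count by itself sets the 8 genes apart in neither ASO. The groups of 6 libraries overlapped for each of the 8 genes, where 5.82% of genes in Ctr and 8.12% in αGlu had groups that did not. Groups of 3 were apart in the same direction in both batches for Pam and Furin in Ctr (13.7% of genes) and for Furin and Pcsk1 in αGlu (21% of genes). No gene of the 8 changed by more than 2-fold, the size the study asked for in its own rule, which 5.91% of genes met in Ctr and 5.57% in αGlu. By the same rule 0 of 8 passed for the αGlu ASO with BSA (0.785% of genes) and with PA (0.942%), for the difference of responses (0.653%) and between batches (6.38%).

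Pcsk1 encodes PC1/3, the convertase that makes the first cuts in proinsulin. Its CPM, scaled between libraries by TMM, was 1005, 1429 and 1666 (lowest, median and highest of 6) in Ctr BSA and 1091, 1229 and 1618 in Ctr PA. In αGlu BSA it was 1211, 1480 and 1851, and in αGlu PA 1090, 1254 and 1486. The groups of 6 overlapped in both ASOs, since batch 2 stood above batch 1 in each group. Within each batch of αGlu cells every PA library was below every BSA library, while in Ctr cells this was so in batch 2 but not in batch 1. In αGlu cells Pcsk1 fell by 0.21 on the log2 scale with PA (SE 0.0622, edgeR adjusted p = 0.0132), or 0.865-fold with a 95% interval of 0.791 to 0.945. In Ctr cells the difference was -0.08 (SE 0.0622, edgeR adjusted p = 0.335), with an interval of 0.864- to 1.03-fold. Without S1 the Ctr difference was -0.12, the lowest with 1 library left out, and the edgeR adjusted p was at least 0.112 in all such fits. The responses in the 2 ASOs differed by -0.13 (SE 0.0880, edgeR adjusted p = 0.999), so a difference between them was not shown.

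Pcsk1n encodes proSAAS, a granule protein whose C-terminal part inhibits PC1/3. Its CPM was 439, 506 and 860 in Ctr BSA (lowest, median and highest of 6) and 263, 430 and 478 in Ctr PA. It was 446, 517 and 577 in αGlu BSA and 413, 456 and 499 in αGlu PA. The PA groups lay lower in the main, and the highest library (S1) and the lowest (S23) were both in Ctr. Pcsk1n fell by 0.46 in Ctr cells with PA (SE 0.134, edgeR adjusted p = 0.0121), or 0.729-fold with an interval of 0.601 to 0.883. Without S1 the difference was -0.30, with an adjusted p of 0.0483, and in a fit on the 2 Ctr groups alone the adjusted p was 0.0646. In αGlu cells it was -0.20 (SE 0.134, edgeR adjusted p = 0.290), and a difference between the responses was not shown (0.26, SE 0.190, edgeR adjusted p = 0.999).

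Pcsk2 encodes PC2, the convertase that completes the cuts in proinsulin and makes glucagon in α-cells. It had the most counts of the 8 genes, with a CPM of 5090, 7203 and 8536 in Ctr BSA (lowest, median and highest) and 6326, 7251 and 9255 in Ctr PA. In αGlu cells it was 5649, 7366 and 8818 with BSA and 6187, 7548 and 9416 with PA. The 4 groups covered much the same range. With PA the log2 difference was 0.11 in Ctr (SE 0.0686, edgeR adjusted p = 0.237) and 0.08 in αGlu (SE 0.0686, edgeR adjusted p = 0.430), and the intervals ran from 0.979- to 1.19-fold and from 0.957- to 1.16-fold. Without S1 the Ctr difference was 0.16, the highest with 1 library left out, and the edgeR adjusted p was at least 0.0685 in all such fits. The antisense gene Pcsk2os1 had 165 to 461 counts per library, against at least 104138 for Pcsk2.

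Scg5 encodes 7B2, the chaperone that PC2 needs to become active. In Ctr cells its CPM was 600, 792 and 818 with BSA (lowest, median and highest) and 760.0, 820 and 889 with PA. In αGlu cells it was 619, 755 and 910 with BSA and 753, 839 and 936 with PA. The medians were higher with PA in both ASOs, and the groups overlapped. The log2 differences were 0.17 in Ctr (SE 0.0691, edgeR adjusted p = 0.0715) and 0.17 in αGlu (SE 0.0691, edgeR adjusted p = 0.0609), so neither passed. Without S1 both passed, at 0.23 in Ctr (adjusted p = 0.00725) and 0.18 in αGlu (adjusted p = 0.0267), and without Ctr PA library S23 both passed as well, with adjusted p of 0.0312 and 0.0447. A fit that took PA against BSA over both ASOs, added after these values were seen, gave 0.17 (SE 0.0489, edgeR adjusted p = 0.00626).

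Furin encodes the convertase of the trans-Golgi network, which cuts precursors in nearly all cells and is not a granule enzyme. Its CPM was 64.1, 92.3 and 114 in Ctr BSA (lowest, median and highest) and 51.8, 66.1 and 74.8 in Ctr PA. It was 74.9, 88.1 and 110 in αGlu BSA and 57.4, 71.99 and 84.2 in αGlu PA. The groups of 6 overlapped because batch 1 was above batch 2, but within each batch and each ASO every PA library was below every BSA library. Furin fell by 0.47 in Ctr cells (SE 0.0635, edgeR adjusted p = 5.41e-06, 0.721-fold with an interval of 0.659 to 0.790). In αGlu cells it fell by 0.34 (SE 0.0633, edgeR adjusted p = 0.00025, 0.789-fold with an interval of 0.721 to 0.864). The responses differed by 0.13 (SE 0.0895, edgeR adjusted p = 0.999).

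Cpe encodes carboxypeptidase E, which removes the basic residues that the convertases leave. Its CPM was 3297, 4434 and 4742 in Ctr BSA (lowest, median and highest), 4060, 4602 and 5075 in Ctr PA, 3862, 4346 and 4827 in αGlu BSA, and 3854, 4572 and 4892 in αGlu PA. All 4 groups overlapped. PA against BSA gave 0.11 in Ctr (SE 0.0663, edgeR adjusted p = 0.236) and 0.04 in αGlu (SE 0.0663, edgeR adjusted p = 0.735), with intervals of 0.979- to 1.18-fold and 0.932- to 1.13-fold. Without S1 the Ctr difference was 0.15, the highest with 1 library left out, and the edgeR adjusted p was at least 0.0715 in all such fits.

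Pam encodes the monooxygenase that amidates the C-terminal ends of peptides, among them amylin. Its CPM was 668, 817 and 978 in Ctr BSA (lowest, median and highest) and 963, 1028 and 1116 in Ctr PA. It was 697, 846 and 1005 in αGlu BSA and 928, 983 and 1080 in αGlu PA. In Ctr cells the groups overlapped by 1 PA library, of batch 1, that lay below the highest BSA library, of batch 2, and within each batch they did not overlap. In αGlu cells the groups were apart in batch 1 and overlapped in batch 2. Pam rose by 0.35 in Ctr cells (SE 0.0614, edgeR adjusted p = 0.000149), or 1.27-fold with an interval of 1.16 to 1.39. In αGlu cells it rose by 0.27 (SE 0.0614, edgeR adjusted p = 0.00199), or 1.20-fold with an interval of 1.10 to 1.31, and the responses differed by -0.08 (SE 0.0867, edgeR adjusted p = 0.999). B230216N24Rik, on the same strand, held 15 to 84 counts a library, against at least 11538 for Pam. The counts of the other genes that overlap Pam were not examined.

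Slc30a8 encodes the granule zinc transporter ZnT8. Its CPM was 238, 316 and 463 in Ctr BSA (lowest, median and highest), 252, 332 and 507 in Ctr PA, 246, 342 and 490 in αGlu BSA, and 256, 353 and 436 in αGlu PA. The groups overlapped almost fully. The log2 differences with PA were 0.10 in Ctr (SE 0.0731, edgeR adjusted p = 0.314) and 0.02 in αGlu (SE 0.0731, edgeR adjusted p = 0.899), with intervals of 0.966- to 1.19-fold and 0.911- to 1.12-fold.

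**Figure D2:**
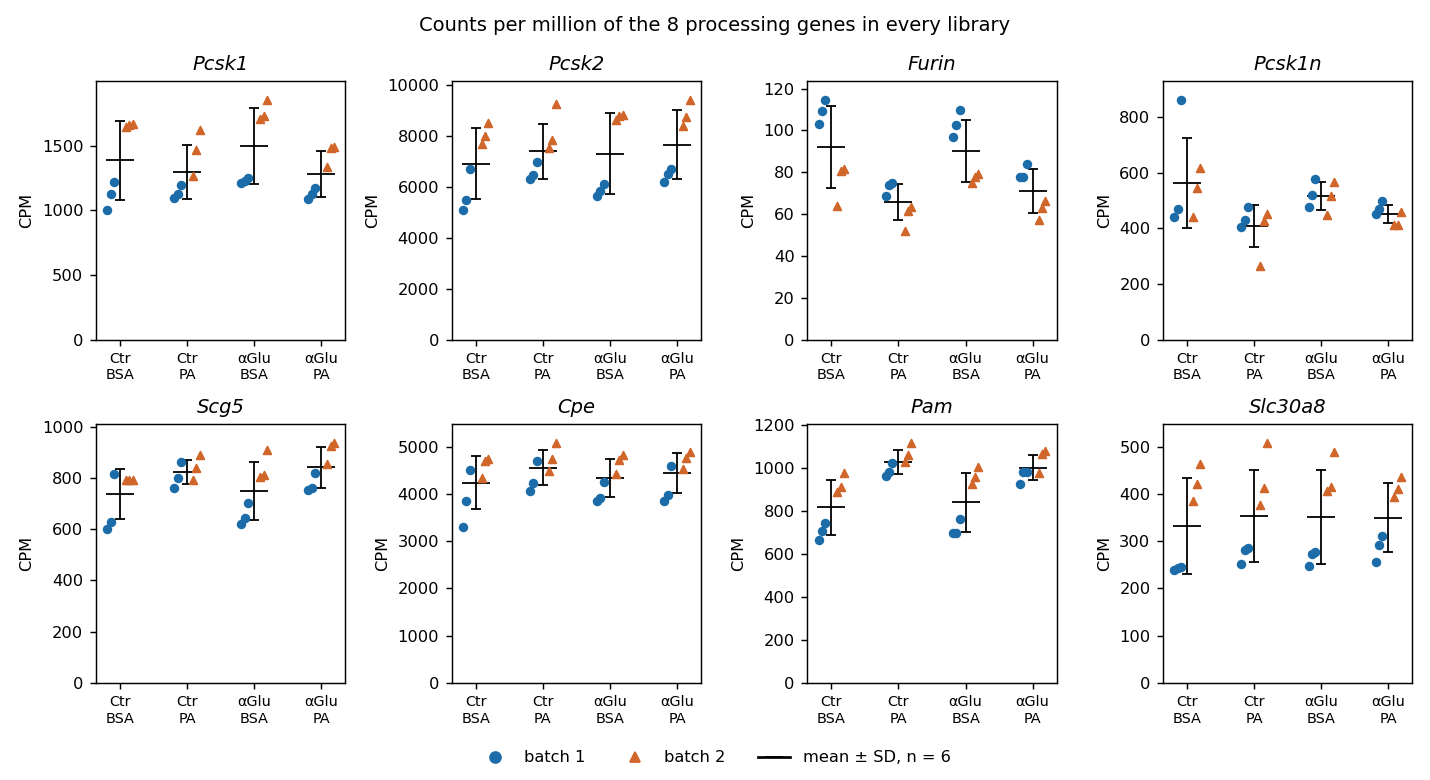
TMM-scaled CPM (linear axis from 0) of each gene in every library of the 4 groups, with circles for batch 1, triangles for batch 2 and black bars for the mean ± SD of 6 libraries. Pam sits higher and Furin lower with PA within each batch of Ctr cells, and Slc30a8, Pcsk2 and Pcsk1 separate by batch.

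Marker genes of other cell types moved with PA beside these results. Over all genes tested, 15.5% rose and 14.5% fell in Ctr, and 14.4% rose and 14.2% fell in αGlu. Of the acinar markers, 5 of 7 fell in Ctr cells and 4 of 7 in αGlu cells, and in batch 1 their summed level ran from 5428 to 18693 CPM in Ctr BSA and from 2632 to 7074 CPM in Ctr PA. Fibroblast or stellate markers fell in 5 of 6 and 3 of 6, with sums of at most 915 CPM in any library, and macrophage markers in 5 of 7 and 1 of 7. Of the β-cell markers 3 of 8 rose and 3 fell in Ctr cells, and 3 rose and 2 fell in αGlu cells. The part of these shifts in the changes of Pam, Furin, Pcsk1 and Pcsk1n was not tested. In batch 2 the summed acinar markers were at most 543 CPM, but other marker sums differed with PA there too. Fibroblast or stellate sums ran from 97.3 to 199 CPM in Ctr BSA and from 22.8 to 38.5 CPM in Ctr PA. Macrophage sums ran from 145 to 355 CPM and from 92.3 to 129 CPM in these groups. In batch 2 Furin was -0.36 in Ctr (adjusted p = 0.0427) and -0.31 in αGlu (adjusted p = 0.0713), and Pcsk1 was -0.30 in αGlu (adjusted p = 0.0379, edgeR on batch 2 alone). In the same libraries Pcsk1n was -0.48 in Ctr (adjusted p = 0.0970), and Pam was 0.20 in Ctr (adjusted p = 0.0697) and 0.11 in αGlu (adjusted p = 0.312), so that neither passed.

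The effect of the αGlu ASO was asked with BSA and with PA, in comparisons that share their libraries with those of PA against BSA. None of the 8 genes passed in either comparison, nor did any other of the genes tested (0% with edgeR), although 461 genes with BSA and 538 with PA had an unadjusted p below 0.05. None of the 8 was among these, and DESeq2, which called 8 genes with BSA and 30 with PA, called none of the 8. The log2 differences of the 8 ranged from -0.12 for Pcsk1n to 0.11 for Pcsk1 with BSA, and from -0.04 for Cpe to 0.14 for Pcsk1n with PA. The intervals of 7 genes stayed within 0.886- to 1.18-fold in both comparisons. That of Pcsk1n was wider, from 0.761- to 1.12-fold with BSA and from 0.911- to 1.34-fold with PA. The groups of 6 overlapped for all 8 genes, as did the groups of 3 in at least 1 batch, where 0.0754% and 0.364% of genes were apart by these criteria with BSA and 0.226% and 0.521% with PA. Within these limits no difference was detected, which does not show that the ASOs acted alike. None of the 8 passed in the test of the difference between the PA responses of the 2 ASOs (0% of genes). The smallest adjusted p over all genes was 0.999 there, and 332 genes had an unadjusted p below 0.05.

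**Figure D3:**
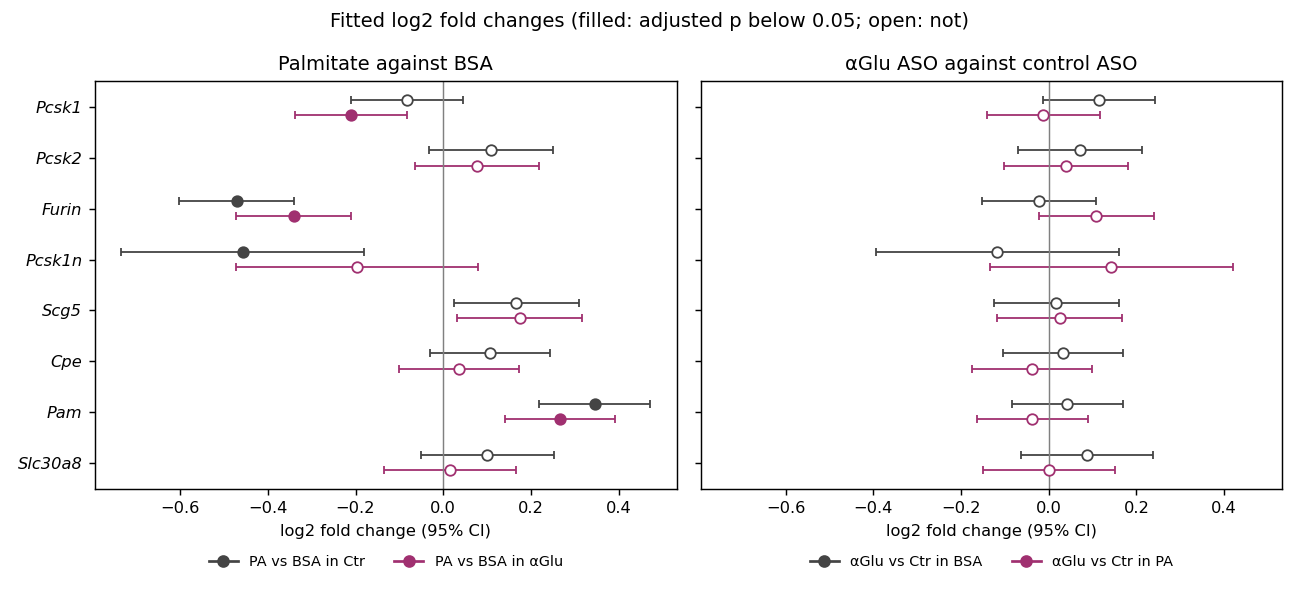
Fitted log2 fold changes with 95% intervals for PA against BSA (left, in Ctr and in αGlu) and for αGlu against Ctr (right, with BSA and with PA), where filled points have an adjusted p below 0.05. Furin lies furthest below 0 with PA (-0.47 in Ctr) and Pam furthest above (0.35 in Ctr), and every point on the right is open.

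The labelled batches also differed in these genes. Over all groups 7 of 8 genes passed between batch 2 and batch 1, where 51.5% of genes did, and of these 6 were higher in batch 2 (26.1% of genes) and 1 was lower (25.4% of genes). Slc30a8 was 1.60-fold higher in batch 2 (log2 0.68, SE 0.0519, edgeR adjusted p = 1.15e-10). Its batch 1 libraries ran from 238 to 312 CPM and its batch 2 libraries from 377 to 507 CPM, with no overlap. The batches did not overlap for Pcsk2 either, at most 6979 CPM in batch 1 and at least 7523 CPM in batch 2. Pcsk1 was likewise apart, at most 1252 CPM in batch 1 and at least 1262 CPM in batch 2. The share of all genes apart by batch was not computed. Pcsk2 (0.46) and Pcsk1 (0.44) were also higher, followed by Pam (0.26), Scg5 (0.21) and Cpe (0.20). Furin was lower, at -0.40 (SE 0.0448, edgeR adjusted p = 5.55e-08), and Pcsk1n did not pass (-0.13, SE 0.0948, edgeR adjusted p = 0.257). Over the same batches all 8 β-cell markers were higher and all 7 acinar markers lower in batch 2. Of the α-cell markers 5 of 7 were lower and 1 was higher, and 2 of 2 PP-cell and 1 of 3 δ-cell markers were lower. The part of these markers in the batch differences was not tested. The labels do not say what set the batches apart.

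Since 3 libraries of each group were in each batch, the PA response could be fitted in each batch alone. Pam gave 0.48 in batch 1 and 0.20 in batch 2 of Ctr cells, and 0.41 and 0.11 in αGlu cells. The larger value was in batch 1 in both ASOs. With batch 1 alone Pam passed in Ctr (adjusted p = 0.00178) and αGlu (adjusted p = 0.00469), and with batch 2 alone in neither (adjusted p = 0.0697 and 0.312). Pcsk1 went the other way, with 0.02 and -0.19 in Ctr and -0.13 and -0.30 in αGlu. Furin was negative throughout, with -0.59 and -0.36 in Ctr and -0.38 and -0.31 in αGlu. Pcsk1n was at -0.44 and -0.48 in Ctr and at -0.15 and -0.25 in αGlu, and none of these passed.

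A test of the difference in PA response between the batches, added after these values were seen, passed for 0.0565% of genes and for none of the 8. Pam came nearest, with a response lower by 0.30 in batch 2 (log2 difference -0.30, SE 0.0661, unadjusted p = 0.000202, edgeR adjusted p = 0.129). For Pcsk1 it was -0.20 (SE 0.0828, edgeR adjusted p = 0.720). Taken over both ASOs, PA against BSA passed for 5 of the 8 genes, where 45.4% of all genes passed. Pam (0.31, adjusted p = 3.54e-06) and Scg5 rose (23.4% of genes rose), Furin (-0.41, adjusted p = 8.68e-08), Pcsk1n (-0.33, adjusted p = 0.00681) and Pcsk1 (-0.15, adjusted p = 0.00875) fell (22% of genes fell), and Pcsk2, Cpe and Slc30a8 did not pass.

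**Figure D4:**
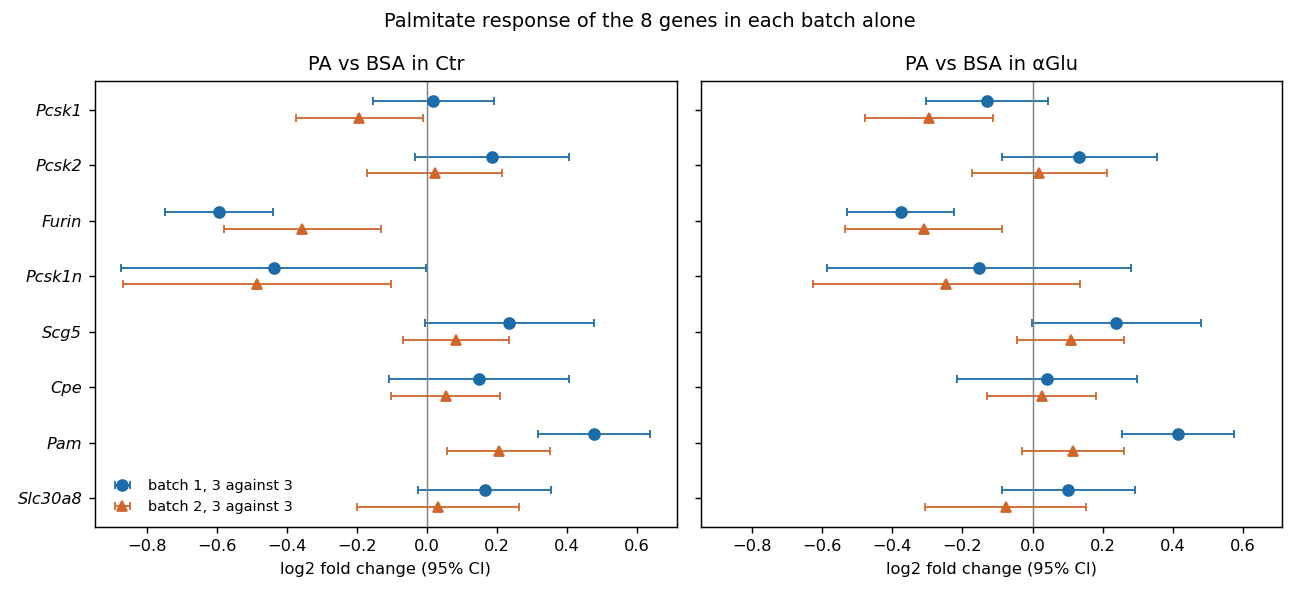
Log2 fold change with PA and its 95% interval, fitted in batch 1 alone (circles) and in batch 2 alone (triangles), in Ctr cells (left) and αGlu cells (right). Furin is negative in all 4 fits (-0.59 to -0.31), and Pam is larger in batch 1 (0.48 and 0.41) than in batch 2 (0.20 and 0.11).

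Ratios within a library do not depend on how libraries are scaled to each other, so 4 of them were compared between groups of 6 with an exact permutation test (two-sided, adjusted over 16 tests). For the convertases that cut proinsulin, the log2 ratio of Pcsk1 to Pcsk2 counts was -2.28 ± 0.0574 (SD, n = 6) in αGlu BSA and -2.57 ± 0.0764 (SD, n = 6) in αGlu PA. Every αGlu PA library was below every αGlu BSA library. The difference of -0.29 had an exact permutation p of 0.00216, the smallest that 6 against 6 can give, and an adjusted p of 0.0346. When libraries were exchanged only within their batch, the exact permutation p was 0.005, the smallest that this exchange can give. Its adjusted value was 0.0533, above the threshold of 0.05. A lone result at that smallest p cannot pass over 16 tests, so the lost call does not show a weaker difference. In Ctr cells the ratio was -2.33 ± 0.216 (SD, n = 6) with BSA and -2.52 ± 0.171 (SD, n = 6) with PA, a difference of -0.19 with an exact permutation p of 0.119 and an adjusted p of 0.476. There S1 had the lowest ratio of its group, and without it the difference was -0.28, with an exact permutation p of 0.0173 and an adjusted p of 0.0693.

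Slc30a8 was set against the insulin genes Ins1 and Ins2, whose product is stored with the zinc it carries. The log2 ratio was -8.12 ± 0.128 (SD, n = 6) in αGlu BSA and -7.85 ± 0.0676 (SD, n = 6) in αGlu PA. The difference of 0.27 had an exact permutation p of 0.00433 and an adjusted p of 0.0346 (0.0533 when exchanged within batches). It was 0.40 in batch 1 and 0.14 in batch 2. In Ctr cells the ratio was -8.21 ± 0.351 (SD, n = 6) with BSA and -7.75 ± 0.236 (SD, n = 6) with PA, and the difference of 0.46 had an exact permutation p of 0.0108 and an adjusted p of 0.0577. Ins1 fell with PA in both ASOs (by 0.44 and 0.32 on the log2 scale), Ins2 fell in Ctr by 0.34, and Slc30a8 passed in neither. Leaving out 1 library at a time ended the αGlu call in 10 of 12 cases, with differences of 0.24 to 0.30 and an adjusted p of 0.0577. These were all 12 cases but those of αGlu PA library S16 and αGlu BSA library S22.

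The ratios of each convertase to its binding protein did not pass in any comparison. Pcsk1 to Pcsk1n was 0.35 higher with PA in Ctr cells (exact permutation adjusted p = 0.756) and -0.02 different in αGlu cells (exact permutation adjusted p = 0.924). The Ctr difference was 0.14 without Ctr BSA library S1 and 0.16 without Ctr PA library S23. Pcsk2 to Scg5 was -0.06 different in Ctr and -0.10 in αGlu (exact permutation adjusted p = 0.756 and 0.700). None of the 4 ratios passed between αGlu and Ctr ASO, where their differences lay between -0.17 and 0.20 on the log2 scale.

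**Figure D5:**
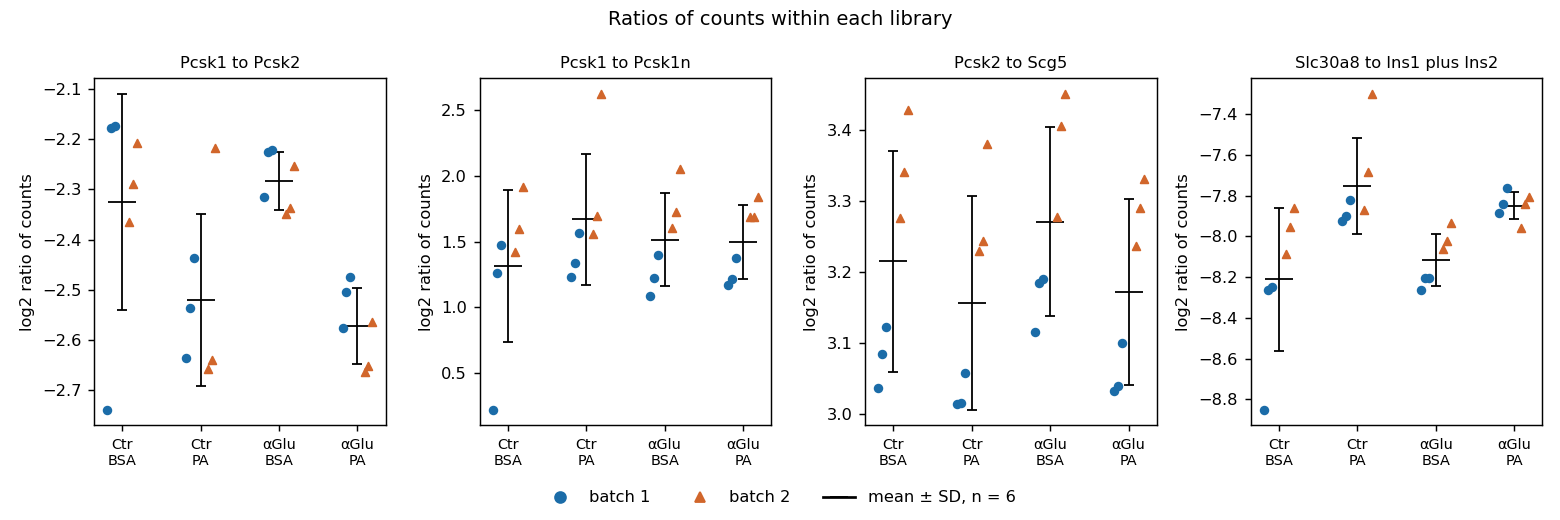
Log2 ratios of counts within each library (the axes do not start at 0) for the 4 groups, with circles for batch 1, triangles for batch 2 and black bars for the mean ± SD of 6 libraries. The Pcsk1 to Pcsk2 ratio of αGlu PA (mean -2.57) lies wholly below that of αGlu BSA (mean -2.28), and S1 is the lowest Ctr BSA point in that panel.

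Related genes were read from lists of their families. Beside their counts stand the shares of all genes tested, of which 15.5% rose and 14.5% fell with PA in Ctr. In αGlu 14.4% rose and 14.2% fell. Of the other proprotein convertases, Pcsk6, which encodes PACE4, rose with PA by 0.75 in Ctr and 0.67 in αGlu. Pcsk7 fell by 0.26 and 0.27, so that Furin was not the only convertase of the general secretory route to fall. Of the peptidases and peptide-end enzymes, 9 of 11 were tested, with 1 up and 1 down in Ctr and 2 up and 1 down in αGlu. Qpct and Qpctl encode glutaminyl cyclases. Qpct rose by 0.36 and 0.39 and the aminopeptidase gene Rnpep fell by 0.22 in both ASOs, while Qpctl passed in αGlu, where it rose by 0.19, and not in Ctr (0.06, adjusted p = 0.441).

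Zinc genes other than Slc30a8 moved in both directions, as did genes in general. In the Slc30 family, which exports zinc from the cytosol, 2 of 7 genes tested rose in Ctr (15.5% of all genes) and 1 of 7 in αGlu (14.4%). They were Slc30a7 (0.27 and 0.21) and, in Ctr, Slc30a4 (0.38, with 0.22 and an adjusted p of 0.108 in αGlu). In the Slc39 family, which imports zinc to the cytosol, 1 of 13 rose and 3 of 13 fell in each ASO. Of all genes, 15.5% rose and 14.5% fell in Ctr, and 14.4% and 14.2% in αGlu. Slc39a11 rose by 0.49 and 0.46, and Slc39a4 fell by 1.31 and 1.56, from a mean of 3.22 CPM to 1.29 CPM in Ctr cells. Slc39a10 fell by 0.27 in αGlu (-0.11 in Ctr, adjusted p = 0.242). The metallothionein genes Mt1 (0.79 and 0.89) and Mt2 (0.71 and 0.77) rose, and Mtf1, the zinc-sensing transcription factor, fell by 0.26 and 0.30.

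Among 18 tested precursors and granins, on which these enzymes act, 4 rose and 6 fell in Ctr and 3 rose and 5 fell in αGlu. The shares of all genes were 15.5% and 14.5% in Ctr and 14.4% and 14.2% in αGlu. Npy, the neuropeptide Y precursor, fell by 1.47 and 1.70, and Vgf, which encodes a granule precursor of several peptides, rose by 0.72 and 0.90. The medians of the 6 lists ran from -0.10 to 0.42 in Ctr and from -0.09 to 0.43 in αGlu, against 0.01 over all genes tested in each. With the αGlu ASO, 0 genes of any of the lists passed in either comparison.

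As a description of how libraries varied beyond group and batch, the log2 CPM residuals of the 8 genes were correlated with those of 11583 genes over the same 24 libraries, which share depth and preparation between genes. Among the 8, Pcsk2 and its chaperone Scg5 were the closest pair (r = 0.88), followed by Pcsk2 and Pcsk1n (0.77) and by Cpe and Scg5 (0.73). Pcsk1 and Pcsk2 showed almost no relation (0.06), and Pcsk1 and Furin ran in opposite directions (-0.63). The nearest genes were Spcs3, Dnajc3 and Pak3 for Pcsk1 (0.86 for each) and Cpn1, Tmed3 and Cst3 for Pcsk2 (0.92, 0.91 and 0.90). They were Ucn3, Dynlt1b and Pcsk2 for Scg5 (0.89, 0.89 and 0.88), Itm2b, Arsb and Eif4e3 for Cpe (0.90, 0.88 and 0.85) and Vstm2l, Ppp1r16a and Enho for Pcsk1n (0.96, 0.95 and 0.95). For Pam they were Pappa2, Hpgds and Entpd3 (0.91, 0.82 and 0.82), for Slc30a8 Slc16a10, Papss2 and Emb (0.94, 0.93 and 0.92), and for Furin Trim28, Klhl22 and Unc119b (0.90, 0.83 and 0.82). Library S1 was among the 24 and lay apart in several of the 8 genes. In S1 Pcsk1n was at 860 CPM, against 439 and 469 CPM in the other Ctr BSA libraries of batch 1. Pcsk2 was at 6710 CPM against 5489 and 5090, and Scg5 at 818 against 630 and 600. Pcsk1 was lower, at 1005 CPM against 1217 and 1125. Ctr PA library S23 also lay apart from the other Ctr PA libraries of batch 2. Its Pcsk1n was at 263 CPM against 452 and 428, and its Slc30a8 at 507 CPM against 414 and 377. The part of S1 and S23 in these correlations was not tested.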

How the data were processed

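Messenger RNA of dispersed mouse islet cells was sequenced from 24 libraries, 6 in each of 4 groups. The labels name each library's ASO, treatment and batch, and the study's methods give 6 independent experiments a group. Stranded mRNA libraries were processed by the authors in the QIAGEN RNA-seq Analysis Portal 5.1 against build GRCm38 per the submitters' processing notes. The sources used here name no aligner, annotation or filter. Per gene and library, the deposited table holds read counts and TPM, and these were used. Its RPKM and CPM values (48 columns) were not used. Counts were fitted as deposited with edgeR 4.0.16 (R 4.3.3): genes kept by filterByExpr (minimum count 10), TMM scaling, group and batch terms over all 24 libraries, quasi-likelihood F-tests, and Benjamini-Hochberg adjustment over 15916 genes. CPM are counts scaled by library size and TMM factor, intervals are 95%, and SE is that of the log2 fold change. TPM were used for levels between genes and, as 1 alternative, for the ratios within a library, and not to compare single genes between groups, since 1 ribosomal row lowers the TPM of all others in library S1. Ratios used exact permutation tests (SciPy 1.17.1). DESeq2 1.42.0, other scalings and filters, each batch alone, no batch term, single groups and leaving out each library were the alternatives. The fitting step was tested on simulated data. The genes, related lists (the 3 of smallest p past the test named from each, except 1 that is not reported here) and markers were chosen with earlier results of these data known. The fits over both ASOs and between batch responses, and the alternative without the ribosomal row, were chosen after seeing the data. Sequences are from RefSeq and, for the ASO, the study's oligo list, and gene models from GENCODE M21.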

Additional observations from a re-analysis of the deposited data

Results flagged for a closer look

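In 48 sets of 6 libraries (8 genes and 4 ratios, each in 4 groups), the gap between an extreme library and its nearest neighbour was large against the range of its group in 3, and chance alone flags about 1 in 20 such sets. Pcsk1n was at 263 CPM in Ctr PA library S23, where the next lowest library of that group was at 404 CPM. The same library had the highest log2 ratio of Pcsk1 to Pcsk1n in Ctr PA, at 2.62 against 1.70 for the next. The log2 ratio of Pcsk1 to Pcsk2 in Ctr BSA library S1 was -2.74, against -2.37 for the next lowest, and S1 was also the library with the lowest total count and the largest share of ribosomal RNA. The part of that share in its ratio was not tested.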

How the results depend on the processing

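The 3 calls of each PA comparison held under both other scalings, both other filters, the alternative without the ribosomal row, DESeq2 and every single library left out, and no sign of a called difference turned. PA in Ctr called 2033 genes in batch 1 alone, 1833 in batch 2 alone (1 of the 8 genes) and 2312 without the batch term, and PA in αGlu called 1644, 1902 (1 of the 8 genes) and 2271 (0 of the 8 genes), settings with fewer libraries or more spread by construction. Without the batch term Furin, Pam and Pcsk1 lost their calls in αGlu (adjusted p = 0.0885, 0.0979 and 0.340). A fit on only the αGlu groups called 5 of the 8 genes, adding Scg5 (adjusted p = 0.0142) and Pcsk1n (adjusted p = 0.0237), whereas on only the Ctr groups Pcsk1n lost its call, and the cause was not tested. Scg5 in αGlu also passed with DESeq2 (adjusted p = 0.0470) and without αGlu BSA library S22 (adjusted p = 0.0235). Asking for a fold above 2 with an unadjusted p below 0.05 called 941 and 886 genes for PA, 125 and 150 for the αGlu ASO, 104 for the difference of responses and 1015 between batches, with 0 of the 8 genes in each. For the αGlu ASO with BSA, DESeq2 called 8 genes and leaving out 1 library gave 0 to 9; with PA, DESeq2 called 30, no filter on low counts 3, only the groups compared 6, batch 2 alone 6, and leaving out 1 library 0 to 3. The ratio of Pcsk1 to Pcsk2 in αGlu (-0.29) and that of Slc30a8 to insulin in αGlu (0.27) lost their calls when libraries were exchanged within batches (exact permutation adjusted p = 0.0533). For Pcsk1 to Pcsk2 the unadjusted p was the smallest that this exchange can give, so the lost call does not show a weaker difference. The difference for Slc30a8 to insulin was 0.40 in batch 1 and 0.14 in batch 2 and ran from 0.24 to 0.30 with 1 library left out. In Ctr it ran from 0.33 to 0.53, passing without Ctr BSA library S21 (exact permutation adjusted p = 0.0231) and with deposited TPM (0.47, exact permutation adjusted p = 0.0462). No paired analysis was made, so the SEs and p-values take no account of pairing. The labels do not say which libraries share an animal. Per the study's methods the groups of a biological replicate did share one, so the libraries of different groups may not be independent, but the single numbers from S1 to S24 are shared by no 2 groups. Depth did not limit the 8 genes, the lowest of which had 1448 counts, but 3 against 3 libraries cannot give a permutation p below 0.1, and proteins, zinc and processed hormone were not measured here.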
